A study of Mus musculus with 2 samples.

Results

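The acrosome and fertilisation genes described here are 41 genes chosen by name. They are 41 of the 41459 genes that both count matrices list, and each was found by its symbol in both. They fall into 6 roles: 10 genes of acrosome contents, 3 lysozyme-like genes, 9 genes of acrosome building and the perinuclear theca, 11 genes of sperm-egg adhesion and fusion, 4 genes of zona binding and oviduct passage, and 4 pore subunits of the CatSper channel. All 41 had at least 50 UMIs (unique molecular identifiers, each counting a captured transcript) in the wild-type (WT) cells kept. In the knockout (KO), 34 had a UMI. The genes were listed by their known roles, and no measured value enters the rule, though earlier results of these data were known when the list was made.

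The cells came from whole testes of mice aged 55 days, dissociated and loaded on a droplet chip for single-cell RNA sequencing. The WT library is Rad21l+/+ and the KO library is Rad21l-/-, which lacks RAD21L, a meiosis-specific kleisin subunit of cohesin. There is 1 library per genotype, so there is no replicate and no test; every interval is a 95% interval for counting error, and a difference between genotypes is one between 2 libraries. The labels give no strain, no litter and no number of animals per library.

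The acrosome is a vesicle built from the Golgi that caps the sperm nucleus and releases enzymes and binding proteins when sperm reach the egg coat. It begins to form in round spermatids, the haploid cells that follow meiosis, and is shaped against the nucleus through a protein layer called the perinuclear theca. IZUMO1 binds its receptor on the egg, and SPACA6, TMEM95, DCST1 and DCST2 are needed with it for the gametes to fuse. ADAM2 and ADAM3 act in the passage of sperm through the oviduct and in binding to the zona pellucida, and the CatSper proteins form the calcium channel of the sperm tail. Many of the transcripts are made well before the protein is used, since transcription stops as the spermatid nucleus condenses.

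The WT library held 33096309 UMIs in 5415 barcodes and the KO library 28001992 in 7118; 14 barcode sequences occur in both. After filtering, 5400 WT and 6255 KO cells were kept and clustered without the 41 genes. Markers named the clusters of 4802 WT and 4587 KO cells; 598 WT and 1668 KO cells stayed unnamed and are in no class. WT had 168 spermatogonia-like, 86 early prophase-like, 405 pachytene and diplotene-like, 2929 round spermatid-like, 1151 elongating spermatid-like and 63 somatic-like cells. KO had 911 spermatogonia-like, 522 early prophase-like and 3154 somatic-like cells and no cell named to the 3 later germ classes. A count of 0 among 6255 allows up to 0.0480% of cells in each, a limit that leaves aside what the unnamed cells are. Levels are given as CPM, the UMIs of a gene scaled to a class total of 10 to the power of 6. The targeted gene, Rad21l, gave 43 UMIs (93.4 CPM) among WT early prophase-like cells, and in KO ones it gave 54 (21.8 CPM). Whether the sequenced end of that transcript lies in the deleted part is not given in the sources used here, so this value does not check the labels. Cell depth differed widely: the median was 30761 UMIs in WT pachytene and diplotene-like cells and 1785 in round spermatid-like cells.

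Together the 41 genes took 0.789% (0.784 to 0.794) of all UMIs in WT pachytene and diplotene-like cells, 1.20% (1.19 to 1.21) in round spermatid-like cells and 0.752% (0.745 to 0.758) in elongating spermatid-like cells. WT spermatogonia-like cells gave 0.229%, and somatic-like cells, used here as background, gave 0.230%. That background is not pure, since Spaca6, which had a somatic level of its own, gave 60 of its 1068 UMIs. The share was no higher in spermatogonia-like cells than in somatic-like cells, and it was highest in round spermatids. With each cell thinned to 1000 UMIs, the median round spermatid-like cell held 8 of the 41 transcripts, the median pachytene and diplotene-like cell 5, and the median somatic-like cell 2.

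The 41 genes split into 2 sets at the step from spermatocyte to round spermatid. In 16 of them the level in pachytene and diplotene-like cells was already near that of round spermatids: the ratio of round to pachytene CPM ran from 0.503 for Adam2 to 1.35 for Adam3. In the other 25 the level was at least 2-fold higher in round spermatids, against 36.5% of all 17686 genes with at least 20 UMIs in these classes. No gene of the 41 was at least 2-fold lower in round spermatids (26.5% of all genes were). Of the 25, Actl7b stood alone at 3.23 (3.06 to 3.41), and the next was Actl7a at 15.3 (13.4 to 17.6). The highest were Zp3r at 36.5 (26.6 to 51.4) and Zan at 38.9 (23.7 to 68.6). None of the 25 was above its somatic-like level in pachytene and diplotene-like cells: 17 were below it, and for 8 the interval of that ratio held 1. Free RNA and expression cannot be told apart in those low pachytene values, and the size and order of the high ratios rest on them. The threshold of 2 and this split were chosen after the values were seen.

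**Figure D1:**
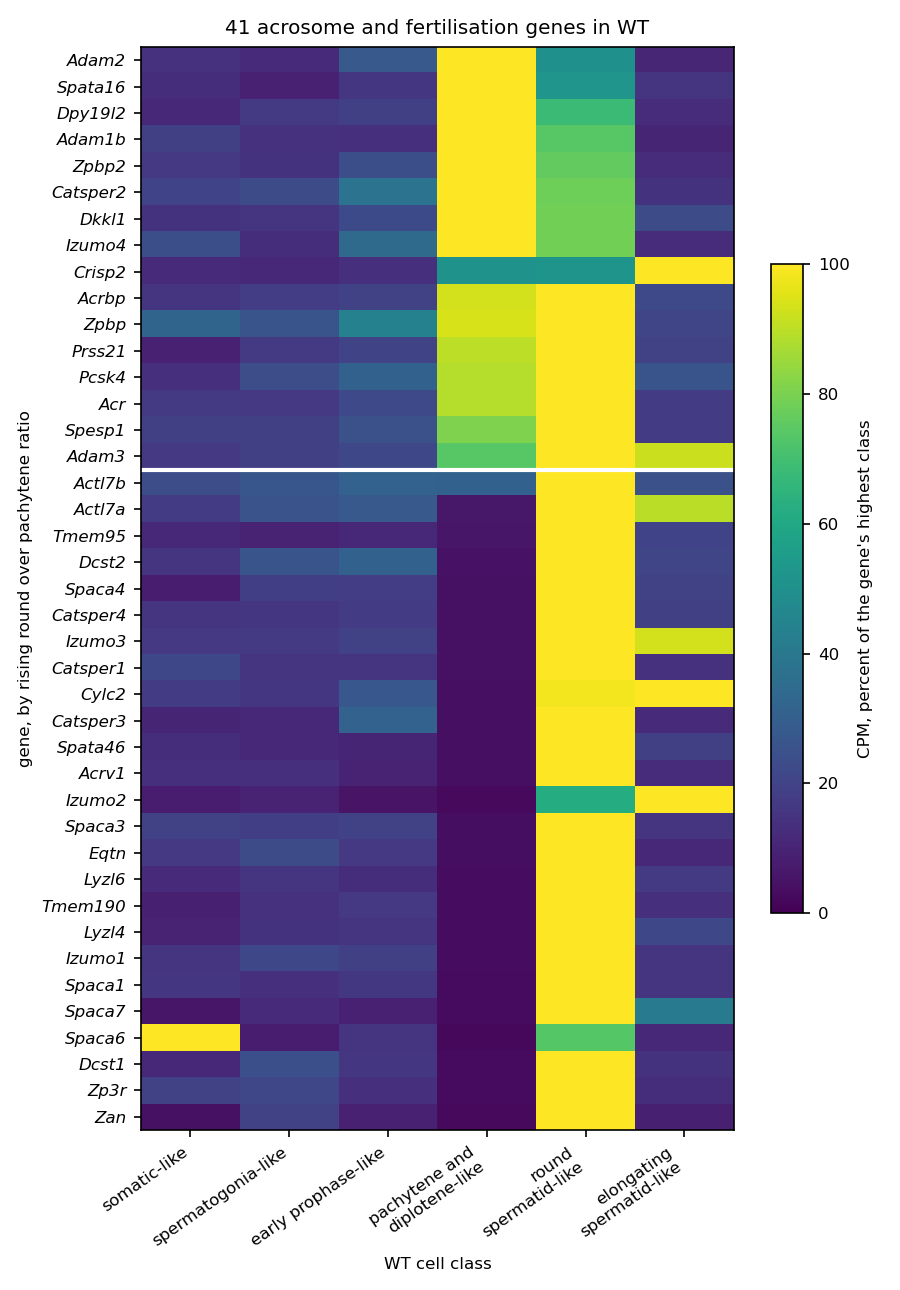
Heatmap of the 41 genes (rows, ordered by the ratio of round spermatid to pachytene level) over 6 WT cell classes (columns); colour gives the CPM as a percent of the gene's highest class. Above the white line lie the 16 genes already high in pachytene and diplotene-like cells, below it the 25 at least 2-fold higher in round spermatid-like cells; Spaca6 is highest in somatic-like cells.

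The split was the same between deep clusters. Cluster 20, a round spermatid-like cluster with a median of 14975 UMIs, was set against cluster 19, the deeper pachytene and diplotene-like cluster with 44184. Again 25 genes were at least 2-fold higher in the round cluster (23.2% of all genes tested), and 25 were shared with the comparison of the whole classes. The clusters are parts of those classes, so both comparisons share cells. Markers of elongating spermatids, which read free RNA in other cells, made up 0.815% of UMIs in cluster 20 and 0.262% in cluster 19, against 1.38% in WT somatic-like cells.

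RefSeq promoter windows (GRCm38.p6, 250 bases before to 50 after a transcript start) were on hand for 33 of the 41 genes, in 37 windows. They are shown because a short sequence was found in some of the genes that are higher in round spermatids and in none of the others. The 8 letters TGATGTCA, read on both strands, are a variant of the cAMP response element, the site class to which the spermatid activator CREM binds. The lines below give the 120 bases before the start, 5′ to 3′ on the gene's own strand, with matches to any of 5 short motifs, each spelled out beside its count further on, in capitals.
Actl7a: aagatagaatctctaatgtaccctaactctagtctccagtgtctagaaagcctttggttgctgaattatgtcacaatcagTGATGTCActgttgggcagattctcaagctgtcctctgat
Actl7b: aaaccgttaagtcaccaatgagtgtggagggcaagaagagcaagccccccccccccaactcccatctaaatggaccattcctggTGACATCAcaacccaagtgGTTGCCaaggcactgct
Spaca7: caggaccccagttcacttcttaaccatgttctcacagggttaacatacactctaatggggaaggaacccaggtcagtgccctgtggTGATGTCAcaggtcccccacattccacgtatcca
Spata46: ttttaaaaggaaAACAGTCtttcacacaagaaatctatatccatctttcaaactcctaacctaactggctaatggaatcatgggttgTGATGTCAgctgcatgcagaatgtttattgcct
Lyzl6: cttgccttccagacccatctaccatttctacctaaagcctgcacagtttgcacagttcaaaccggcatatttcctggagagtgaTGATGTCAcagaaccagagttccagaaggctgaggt
Izumo1: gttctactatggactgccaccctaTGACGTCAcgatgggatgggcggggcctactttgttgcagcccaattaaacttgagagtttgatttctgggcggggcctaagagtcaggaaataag
Acrbp: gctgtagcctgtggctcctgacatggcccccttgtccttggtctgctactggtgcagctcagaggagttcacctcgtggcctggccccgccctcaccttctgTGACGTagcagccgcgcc
Spesp1: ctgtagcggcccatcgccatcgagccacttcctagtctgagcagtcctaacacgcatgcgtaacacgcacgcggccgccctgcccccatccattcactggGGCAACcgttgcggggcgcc

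In Actl7a (chr4:56743302-56743421, plus strand), Actl7b (chr4:56741426-56741545, minus strand), Spaca7 (chr8:12572916-12573035, plus strand), Spata46 (chr1:170308699-170308818, plus strand) and Lyzl6 (chr11:103638891-103639010, minus strand), the 8 letters begin between 33 and 40 bases before the start. In Actl7b they read on the opposite strand, as TGACATCA. Izumo1 (chr7:45621691-45621810, plus strand) holds the full palindrome TGACGTCA, 96 bases before its start. Acrbp (chr6:125049807-125049926, plus strand) and Spesp1 (chr9:62282180-62282299, minus strand) belong to the 16 genes already on in pachytene, and their windows hold neither form.

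TGATGTCA was in the window of 5 of the 22 round spermatid genes with a window (22.7%) and of 0 of the 11 pachytene genes. The looser TGANGTCA, which includes it and the full palindrome, was in 10 of the 22 (45.5%: Spaca7, Spaca3, Lyzl6, Spata46, Actl7a, Actl7b, Izumo1, Izumo2, Spaca4 and Spaca6) and again in 0 of the 11. These counts are by gene, and a gene can have more than 1 window. By window, 5 of the 37 member windows (13.5%) held the first and 11 (29.7%) the second. Of all 32851 windows, 3.62% held the first and 8.83% the second. The same split of all other genes of the table gave TGANGTCA in 16.8% of 4849 genes at least 2-fold higher in round spermatids and in 8.05% of 8707 genes that were not. It gave TGATGTCA in 8.58% of the first and in 1.95% of the second. TGATGTCA began 30 to 45 bases before the start in 1.15% and 0.218% of these, and in 5 of the 22 members. That range encloses the positions already read in these 5 genes, so their count within it is not a separate result. Among other genes of the same processes (the lists are described below), TGANGTCA was in 11 of 34 higher in round spermatids and in 2 of 19 that were not (Tex101 and Lypd4). TGATGTCA was in 8 of the 34 (Fam209, Spam1, Hyal5, Fam71f1, Adam29, Fam170b, Actl9 and Cylc1) and 0 of the 19. The half-site TGACGT, which overlaps the palindrome, was in 3 of 22 and 2 of 11 (7.51% of all windows). GTTGCC, the RFX half-site, was in 3 of 22 and 4 of 11 (12.5%), and AACNGTC, a MYB-type site, in 1 of 22 and 2 of 11 (8.01%). The bracketed shares of these 3 motifs are by window, for which the 37 member windows gave 13.5%, 18.9% and 8.11%. The letters TGANGTCA and TGATGTCA were chosen after the sequences had been seen, and a match is only a match of letters.

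Acrosome contents. These 10 genes summed to 4486 CPM in pachytene and diplotene-like cells, 4999.7 in round spermatid-like cells and 4427 in elongating spermatid-like cells, against 925 CPM in somatic-like cells. In 7 of the 10 the ratio of round to pachytene level was under 2. Dkkl1, a secreted acrosomal protein related to the Dickkopf family, stood at 237 CPM in spermatogonia-like, 352 in early prophase-like, 1561 in pachytene and diplotene-like, 1227 in round and 355 in elongating spermatid-like cells, with 226 in somatic-like cells. It was thus highest in spermatocytes, 1.27 times (1.24 to 1.30) its level in round spermatids. Crisp2, a cysteine-rich protein of the acrosome and tail, gave 426, 515, 1874, 1895 and 3665 CPM in the same order, with 431 in somatic-like cells. It was the gene that gained most in elongating spermatids, 1.93 times (1.90 to 1.97) the round level.

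Acrbp, which binds the zymogen of acrosin, rose to 433 CPM in pachytene and diplotene-like cells and stood at 464 in round spermatids, with 71.2 in somatic-like cells. Acr, the acrosomal protease acrosin, gave 227 and 256 CPM, with 43.1 in somatic-like cells. Spesp1, an equatorial segment protein, gave 211 and 261 CPM, with 49.6. In all 3 genes the level was again near the somatic background in elongating spermatids: 103, 45.5 and 46.2 CPM. Pcsk4, a proprotein convertase, and Prss21, a membrane serine protease, had the same form, with 68.8 and 86.4 CPM in pachytene and diplotene-like cells and 77.4 and 95.9 in round spermatids.

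Acrv1, Zp3r and Spaca7 differed from these 7. Acrv1, which encodes the acrosomal antigen SP-10, was at 13.0 CPM in pachytene and diplotene-like cells, below its 45.3 CPM in somatic-like cells, and at 329 in round spermatids. Zp3r, the acrosomal matrix protein sp56, went from 3.04 to 111 CPM and Spaca7, a releasable acrosomal protein, from 8.43 to 284. In elongating spermatids Spaca7 held 117 CPM, while Acrv1 was at 42.2 and Zp3r at 14.5.

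Lysozyme-like genes. Spaca3, Lyzl4 and Lyzl6 encode lysozyme-related sperm proteins of the acrosome region. Their sum was 24.6 CPM in pachytene and diplotene-like cells and 684 in round spermatids, then 119 in elongating spermatids and 101 in somatic-like cells. The ratio of round to pachytene level was 26.0 for Spaca3, 29.8 for Lyzl4 and 29.1 for Lyzl6, with intervals that overlap. Their pachytene levels, 11.4, 5.32 and 7.90 CPM, were below the 58.2, 15.1 and 28.0 CPM of somatic-like cells. The likeness of the 3 ratios therefore rests on values at background.

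Acrosome building and perinuclear theca. This role divided into 4 genes on in pachytene (Zpbp, Zpbp2, Dpy19l2 and Spata16) and 5 that came with round spermatids (Spaca1, Spata46, Actl7a, Actl7b and Cylc2). Spata16, a Golgi protein of the forming acrosome, was at 562 CPM in pachytene and diplotene-like cells and 293 in round spermatids. Zpbp2 and Dpy19l2, an acrosomal zona-binding protein and a nuclear envelope protein that anchors the acrosome, were likewise higher before meiosis ended, at 415 against 315 CPM and at 207 against 141. Zpbp, the relative of Zpbp2, was about level at 158 and 168 CPM. All 4 were low in elongating spermatids, at 86.1, 53.4, 25.9 and 35.2 CPM.

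Spaca1, a membrane protein needed to shape the acrosome, was at 11.5 CPM in pachytene and diplotene-like cells and at 372 in round spermatids, with 58.2 in somatic-like cells. Spata46, a protein of the subacrosomal nuclear envelope, went from 16.1 to 397 CPM. Cylc2, a calyx protein of the theca, went from 27.3 to 629.6 CPM and stayed at 641 in elongating spermatids. Actl7a and Actl7b are testis actin-like proteins whose genes lie next to each other, 1997 bases apart in the RefSeq GRCm38.p6 annotation. They did not move as a pair: Actl7b was already at 142 CPM in pachytene and diplotene-like cells (457 in round, 114 in elongating spermatids), and Actl7a was at 17.2, then 264 and 237.

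Sperm-egg adhesion and fusion. Of these 11 genes, Izumo4 alone was on in pachytene, with 207 CPM there and 163 in round spermatids. The other 10 were between 1.14 and 11.1 CPM in pachytene and diplotene-like cells, and each was at least 16.3 times higher in round spermatids. Izumo1, the sperm ligand of the egg receptor JUNO, went from 3.95 (2.95 to 5.18) to 126 (119 to 133) CPM and back to 19.3 in elongating spermatids. Its relatives differed: Izumo2 went from 10.8 to 280.2 and on to 453 CPM in elongating spermatids, and Izumo3 held 158 CPM there after 169.9 in round spermatids. Izumo4, the family member without a membrane anchor, was at 26.0 CPM in elongating spermatids. The 4 IZUMO genes thus followed 3 courses.

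Spaca4, an adhesion protein of the Ly6 family, and Tmem190, a membrane protein of the inner acrosome, reached 240.1 and 249 CPM in round spermatids. The fusion factors Dcst1, Dcst2 and Tmem95 were low throughout, at 55.6, 41.7 and 18.6 CPM in round spermatids with 1.59, 2.05 and 1.14 in pachytene and diplotene-like cells. Dcst1 and Dcst2 overlap in the annotation but lie on opposite strands, and whether reads of one were counted for the other was not tested. Eqtn, an acrosomal membrane protein, gave 131 CPM in round spermatids after 4.94. Spaca6, a further fusion factor, gave 94.8 CPM after 2.73, but it was higher still in WT somatic-like cells, at 129 CPM (98.7 to 167). It was the 1 gene of the 41 whose highest WT class was not a germ class.

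Zona binding and oviduct passage. Adam2 had the lowest ratio of round to pachytene level of the 41: 62.6 CPM in spermatogonia-like, 148 in early prophase-like, 531 in pachytene and diplotene-like, 267 in round and 56.3 in elongating spermatid-like cells, with 75.5 in somatic-like cells. Adam1b, whose protein pairs with ADAM2, was at 192 CPM in pachytene and diplotene-like cells and 142 in round spermatids. Adam3, whose protein is needed for sperm to pass into the oviduct, gave 560.3, 755 and 696 CPM in pachytene, round and elongating classes and so remained in elongating spermatids where Adam2 and Adam1b (20.2 CPM) were low. Zan, the zona-binding protein zonadhesin, was a round spermatid gene, at 1.21, 47.2 and 4.17 CPM.

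CatSper channel. Catsper2 was on in pachytene, with 268 CPM there and 209 in round spermatids. The other 3 pore subunits came with round spermatids: Catsper1 went from 3.04 to 70.0 CPM, Catsper3 from 3.34 to 82.5 and Catsper4 from 5.47 to 125. All 4 were at 39.1 CPM or less in elongating spermatids.

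**Figure D2:**
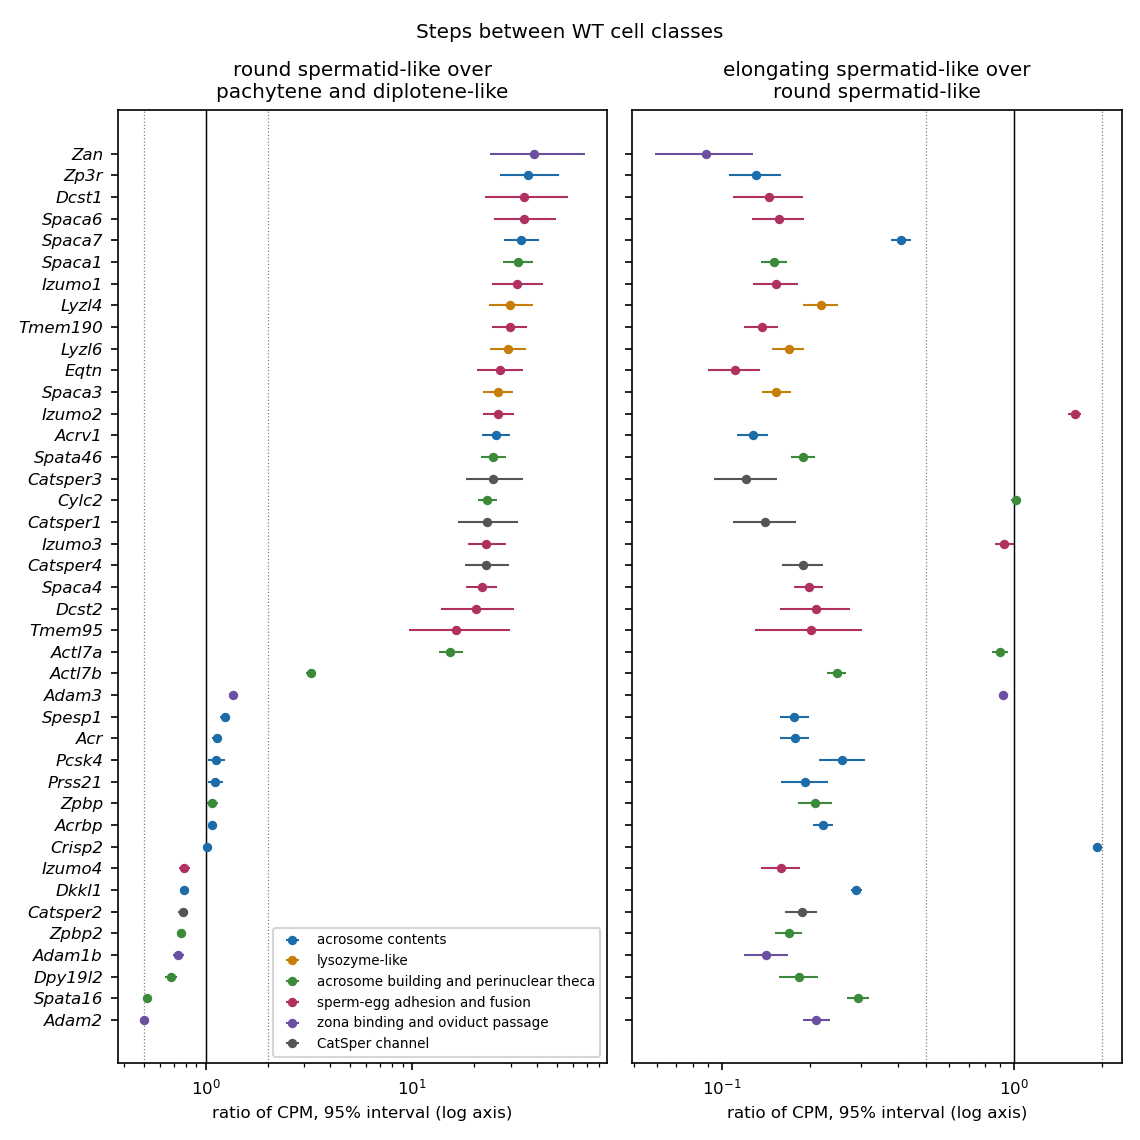
Ratio of CPM between WT classes for each of the 41 genes (rows, same order in both panels), with 95% counting intervals on a log axis; left, round spermatid over pachytene and diplotene, right, elongating over round spermatid, dotted lines at 2-fold. On the left 16 genes lie between 0.503 and 1.35 and 25 at 3.23 or above; on the right 35 genes lie below 0.5, and Crisp2, Izumo2, Cylc2, Izumo3, Adam3 and Actl7a lie between 0.899 and 1.93.

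The class with the highest level was round spermatids for 30 genes (22.7% of all genes with at least 50 WT UMIs), pachytene and diplotene for 8 (23.5%: Dkkl1, Zpbp2, Dpy19l2, Spata16, Izumo4, Adam1b, Adam2 and Catsper2) and elongating spermatids for 3 (9.80%: Crisp2, Izumo2 and Cylc2). These counts are over the germ classes; no gene was highest in early prophase (17.4%) or spermatogonia (26.7%). Cylc2 did not differ between elongating and round spermatids beyond counting error, at 1.02 (0.979 to 1.06). The same was true of Izumo3, at 0.928 (0.860 to 1.00), and of Zpbp between round spermatids and pachytene, at 1.07 (0.999 to 1.14). From round to elongating spermatids 35 genes were at least 2-fold lower, against 69.7% of all genes, and 0 were at least 2-fold higher, against 5.15%. Those not lower by that much were Crisp2, Izumo2, Cylc2, Izumo3, Adam3 and Actl7a. Protamine, transition protein and other elongating markers made up 23.8% of UMIs in elongating spermatids and 5.90% in round spermatids. With these markers taken out of the totals, 6 genes were highest in elongating spermatids, and 34 were at least 2-fold lower there than in round spermatids.

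Finer steps were seen between clusters within a class. These pairs were picked after the clusters were seen. Between the pachytene and diplotene-like clusters 15 and 19, of which the second holds Pou5f2 and the first Piwil1 and H1f6 among its leading genes, 7 of 39 genes with enough UMIs were at least 2-fold higher in cluster 19 (11.9% of all genes): Prss21 6.48 times (5.45 to 7.74), Catsper2 3.16, Izumo4 2.90, Adam3 2.73, Zpbp2 2.57, Adam1b 2.56 and Acrbp 2.0. Adam2, at 500.4 CPM in cluster 15 and 562 in cluster 19, and Dkkl1, at 1374 and 1747, were already near their full level in the first. Spaca1 and Dcst1 were lower in cluster 19 by at least 2-fold (24.0% of all genes), Spaca1 with 15.4 CPM in cluster 15 and 7.56 in cluster 19, and Dcst1 on 14 and 7 UMIs with an interval that holds 1. Both Spaca1 values lay below its 58.2 CPM in WT somatic-like cells. Elongating markers made up 0.376% of UMIs in cluster 15 and 0.262% in cluster 19, so free RNA and expression cannot be told apart here.

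Among round spermatid-like cells, cluster 18 carried elongating markers at 13.7% of its UMIs and cluster 20 at 0.815%, and both were deep. Here 14 genes were at least 2-fold lower in cluster 18 (46.1% of all genes were), and 12 of them were genes already on in pachytene: Adam1b was at 0.128 (0.101 to 0.161) of its cluster 20 level, Zpbp2 at 0.170 and Catsper2 at 0.215. Tmem95, with 36.2 CPM in cluster 20 and 8.59 in cluster 18, and Zan, with 44.1 and 10.8, were the others. Izumo2 and Actl7a were at least 2-fold higher in cluster 18 (21.8% of all genes), at 3.35 (3.00 to 3.76) and 2.55 (2.28 to 2.85) times. Tmem95 and Zan were thus low again while Acrv1, with 285 and 298 CPM, and Spaca1, with 423 and 353, were still there.

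The shallow round spermatid-like clusters 8 and 7, with medians of 1812.5 and 1744 UMIs, were also set against cluster 20. Cluster 8 was at least 2-fold higher in 7 of 41 genes, fewer than the 28.2% of all genes: Izumo1 4.11 times (3.44 to 4.92), Spaca6 4.02, Zp3r 2.87, Acrv1 2.36, Catsper3 2.35, Tmem190 2.31 and Eqtn 2.22. It was at least 2-fold lower in 8 (24.3%), among them Zpbp2, Adam1b and Adam3. Cluster 7 was higher in 4 (27.0%): Spaca6 3.48 times (2.81 to 4.34), Zan 3.47, Zp3r 2.40 and Izumo1 2.09. It was lower in 5 (11.2%): Zpbp2, Spata16, Izumo4, Adam3 and Catsper2. Depth, so much lower in both than in cluster 20, moves with these results, and its part in them was not tested.

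From cluster 18 to cluster 4, the larger elongating spermatid-like cluster, 31 genes were at least 2-fold lower (35.3% of all genes), and 0 were at least 2-fold higher (2.68%). Crisp2 was higher by 1.51 times (1.46 to 1.55). In cluster 12, the other elongating cluster, Izumo2 was at 117 CPM after 521 in cluster 4, Cylc2 at 204 after 729.9, Izumo3 at 37.7 after 182 and Adam3 at 294 after 778. Together with Spaca7 these 5 genes were at least 2-fold lower (11.4% of all genes). Crisp2 went the other way, with 3286 CPM in cluster 4 and 5520.5 in cluster 12, and Actl7a was at 229 and 278. At least 2-fold higher in cluster 12 were 11 genes (21.2%), all at low levels, such as Zpbp2 with 42.6 and 107 CPM. Cluster 12 is also the shallower, with a median of 3193 UMIs against 6421.

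**Figure D3:**
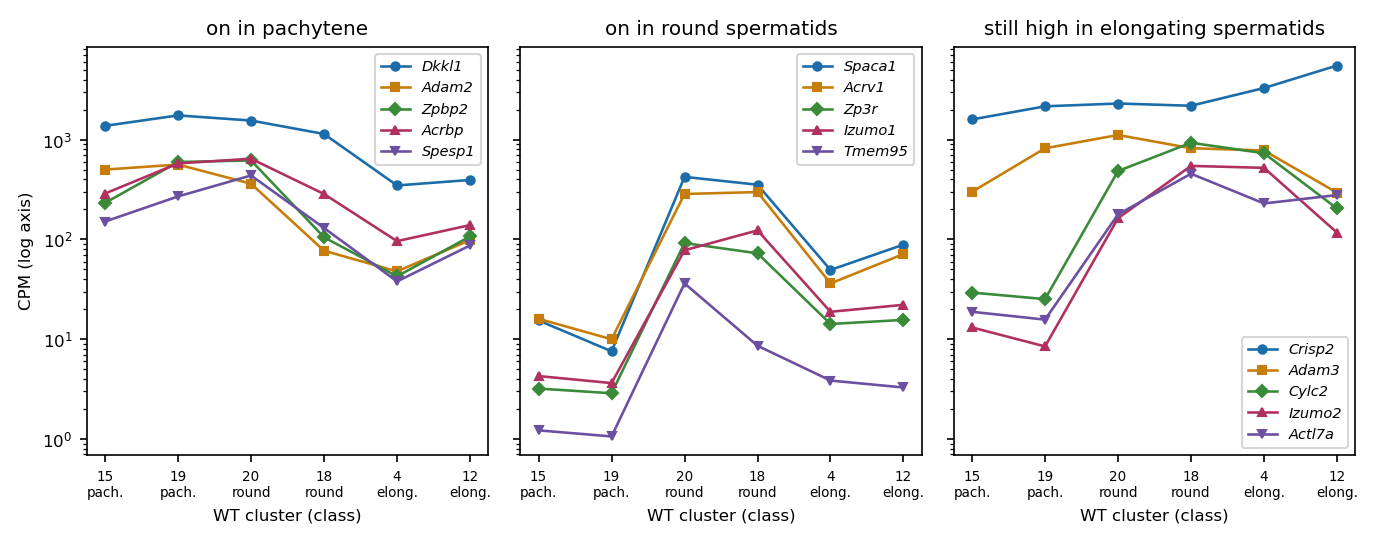
CPM (log axis) of 15 of the genes over 6 WT clusters with at least 3193 median UMIs, in the order pachytene and diplotene (15, 19), round (20, 18) and elongating spermatid-like (4, 12); the lines join clusters and are not a measured time course. The genes on the left are high from cluster 15, those in the middle appear in cluster 20, and on the right Crisp2 climbs to 5520.5 CPM in cluster 12 while Cylc2, Izumo2 and Adam3 drop.

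The first class of each gene was read by a fixed rule: at least 10 UMIs, a lower bound above a free RNA level set from elongating markers (19.1% of the gene's level in all WT cells), and at least 10% of the gene's highest class. It placed 27 of the 41 in spermatogonia-like cells (57.4% of all genes), 7 in early prophase (2.98%), 4 in pachytene and diplotene (21.0%), 3 in round (18.2%) and 0 in elongating spermatids (0.0123%); 0 had no class (0.374%). The spermatogonia values behind those 27 calls were at the level of the somatic-like cells. The summed genes in WT spermatogonia-like cells were 0.994 times (0.925 to 1.07) those in somatic-like cells, and for 38 of 41 genes the interval of that ratio held 1. The one gene above was Spaca4, at 44.5 against 19.4 CPM; Izumo4 and Spaca6 were below. Free RNA and expression cannot be told apart in these WT spermatogonia-like values. WT doublets were not removed. In the KO library, Pcsk4, Zpbp, Eqtn and Catsper2, all among the 27, were above somatic-like cells in spermatogonia-like cells.

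With the upper bound of the WT somatic-like cells as the level to exceed, 0 genes began in spermatogonia-like cells (15% of all genes), 2 in early prophase (4.65%), 14 in pachytene and diplotene (13.1%), 24 in round spermatids (12%) and 0 in elongating spermatids (1.72%). Spaca6 exceeded it in no class, as did 53.6% of all genes. The 16 genes that began by pachytene were the 16 whose round to pachytene ratio was under 2. Both splits rest on the same pachytene values, so their match is not a separate result. The 2 in early prophase were Dkkl1, 1.55 times (1.21 to 2.01) its somatic-like level there, and Adam2, 1.96 times (1.28 to 3.03). By the interval of that ratio 4 genes were above 1, 1 was below and 36 held 1. The other 2 above, which did not begin there by the bound, were Catsper2 at 1.89 (1.14 to 3.21) and Cylc2 at 1.52 (1.06 to 2.19). Only 86 WT cells stand behind these early prophase values.

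Other genes of the same processes were taken from 6 lists of 75 genes, of which 73 were found. By the somatic-like bound 5 of the 73 began in spermatogonia-like cells, 4 in early prophase, 19 in pachytene and diplotene, 41 in round spermatids and 1 in elongating spermatids, and 3 had no class. Of the 71 with enough UMIs, 43 were at least 2-fold higher in round spermatids than in pachytene (36.5% of all genes were). In the perinuclear theca list 10 of 10 were, and 6 were highest in elongating spermatids (9.80% of all genes); Actrt2, an actin-related theca protein, went from 22.0 to 459 to 1124 CPM and Capza3, a sperm actin-capping subunit, from 14.1 to 322 to 424.

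The other ADAM genes of the testis divided like the members. Adam5, Adam32, Adam18 and Adam30 were on in pachytene and diplotene-like cells (719.5 CPM for Adam5 and 533 for Adam32), and 9 of 13 were at least 2-fold higher in round spermatids. The CatSper list did so too. The auxiliary subunit genes Catsperz, Catsperg1, Catsperg2, Catsperd, Catsperb and Catspere1 were highest in pachytene and diplotene-like cells, Catsperz with 1029 CPM, together with C2cd6 at 623, while Efcab9, Tmem262 and Tmem249 were at least 24.3 times higher in round spermatids. Catsper2 sat with the first set and Catsper1, Catsper3 and Catsper4 with the second.

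In the list of chaperones and ADAM3 maturation, 7 of 12 genes began in round spermatids by the somatic-like bound, 2 in pachytene and diplotene, and Tex101 and Clgn before that. Clgn, the endoplasmic reticulum chaperone calmegin, was at 202 CPM in spermatogonia-like, 485 in early prophase-like and 1428 in pachytene and diplotene-like cells, and Cmtm2a at 931 in the last. Tex101, a glycoprotein that ADAM3 maturation needs, was at 1521 CPM in early prophase-like cells and 70.3 in round spermatids. Ly6k, from the fusion list, whose protein binds TEX101, was at 960.4 and 87.0 CPM. Of the 12 other acrosome building genes, 3 began in spermatogonia-like cells, 2 in early prophase, 4 in pachytene and diplotene and 3 in round spermatids. Spink2, an acrosin inhibitor, led with 1191 CPM in pachytene and diplotene-like cells, and Tmf1, a Golgi protein, with 513. Fndc3a, Csnk2a2 and Pick1 first exceeded the somatic-like bound in spermatogonia-like cells, and Tmf1, Fam71f1, Clgn and Catsperg1 in early prophase. Fam71f1 did not stay above it: it was at 91.3 CPM in early prophase, 20.6 in pachytene and diplotene, and 374 and 531 in round and elongating spermatids. Spaca9 and Llcfc1, from the fusion list, were highest in elongating spermatids, at 892 and 511 CPM.

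Over all barcodes the 41 genes took 0.871% (0.868 to 0.874) of WT UMIs and 0.0140% (0.0136 to 0.0145) of KO UMIs, a ratio of 62.0 (60.1 to 64.0). Fewer cells of a class and less RNA per cell cannot be told apart in such sums, and the KO library held no cell named to the classes where these genes are high. At least 2-fold lower in KO were 40 genes (34.1% of all genes). The exception was Spaca6, with 36.0 CPM in WT and 76.3 in KO (43.3% of all genes were at least 2-fold higher in KO). Zp3r, Spaca3, Izumo2, Izumo3, Spaca4, Catsper1 and Catsper4 had no KO UMI; with 3 UMIs as the floor, WT was at least 242-fold higher for Catsper1 and at least 1801-fold higher for Izumo2. The smallest differences besides Spaca6 were in Izumo4, at 10.6 times (9.51 to 11.8), Spaca1, at 13.7 (12.1 to 15.5), and Catsper2, at 21.6.

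In the classes present in both libraries the WT sum was also higher. It was 31.1 times (28.0 to 34.7) that of KO in spermatogonia-like cells and 12.5 times (11.4 to 13.8) in early prophase-like cells. The spermatogonia value depends on how cells are assigned: with each cell gated by its own markers it was 95.8, and with cells thinned to 1000 UMIs 43.2. At least 2-fold lower in KO were 33 of the 34 genes with enough UMIs in the first (11.1% of all genes) and 20 of 22 in the second (10.7%). At least 2-fold higher in KO was no gene of the 41 in either class (7.12% and 12.7% of all genes). The WT values hold the background described above: elongating markers made up 1.17% and 1.24% of WT UMIs in these classes and 0.000607% and 0.000524% of KO UMIs. Free RNA and expression cannot be told apart in the WT side of this difference.

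The KO library was almost free of spermatid RNA, so its early classes could be read without that background. Somatic markers were seen in them. The median share of Sertoli markers was 0.122% of UMIs in spermatogonia-like, 0.123% in early prophase-like and 0.345% in somatic-like KO cells. For genes with a somatic level, free RNA and expression cannot be told apart in low KO germ values. The 41 genes took 0.00735% of UMIs in KO spermatogonia-like cells, 0.0232% (0.0214 to 0.0252) in early prophase-like cells and 0.0153% in somatic-like cells, where 1889 of their 2586 UMIs were of Spaca6. In spermatogonia-like cells 6 of the 11 genes with at least 20 UMIs stood at least 2-fold above KO somatic-like cells with intervals apart (Acr, Pcsk4, Dkkl1, Zpbp, Eqtn and Catsper2), against 26.1% of all genes. In early prophase-like cells these were 8 of 12 (Acr, Spesp1, Dkkl1, Crisp2, Spaca1, Zpbp, Adam2 and Catsper2), against 23.4%. The somatic-like level is a pool of cell types. Spaca1, at 22.2 CPM (16.7 to 28.9) in early prophase-like cells, overlapped Sertoli-like cells at 16.3 (13.7 to 19.2). Acr, at 4.44 (2.21 to 7.94), was below endothelial-like cells at 26.7 (11.5 to 52.5). A gene could reach 20 UMIs through the class where it was high, so the counts are a description. With cells thinned to 1000 UMIs the first count was 0 and the second 2, and at 4-fold in place of 2-fold the count was 2 in spermatogonia-like cells.

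Within early prophase the signal lay in 2 sub-clusters with Rad51ap2, a gene of meiotic recombination, among their leading genes, 207 KO cells in all; they were set apart after their leading genes were seen. There the genes took 0.0426% of UMIs, against 0.00628% in the other 315 early prophase-like cells, whose leading genes include Meiosin and Prdm9. In the Rad51ap2-led cells 10 of 12 genes with enough UMIs were above the somatic-like cells (20.8% of all genes). They were the 8 of the whole class with Pcsk4 and Izumo4. In the other early prophase-like cells 2 of 7 were, Zpbp and Catsper2 (21.1%). Here too a gene could have enough UMIs through the cells where it was high, and raised genes with fewer UMIs were left out. The counts are therefore a description and not a test against all genes.

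Spesp1 was at 76.0 CPM (61.0 to 93.7) in the Rad51ap2-led KO cells, 3.78 in the other early prophase-like cells, 1.84 in spermatogonia-like and 0.829 in somatic-like cells. Dkkl1 was at 50.1 (38.1 to 64.8), 3.78, 4.60 and 0.533 CPM in the same order. Adam2 was at 39.7 (29.1 to 53.0) CPM, had no UMI in the other early prophase-like cells, and stood at 0.368 and 0.414 in the last. Crisp2 did the same, with 25.1 CPM (16.8 to 36.0), no UMI, 0.184 and 0.296. All 4 are genes that in WT were on by pachytene.

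Zpbp was at 34.6 CPM and Catsper2 at 50.1 in the Rad51ap2-led cells. Both had a lower level before, in spermatogonia-like cells at 8.27 and 14.0 CPM, above the 2.19 and 4.26 of somatic-like cells. Acr, at 9.51 CPM, and Pcsk4, at 6.91, were low. Izumo4 was at 48.4 (36.6 to 62.8) CPM, 5.29 in the other early prophase-like cells and 15.1 in somatic-like cells. Of the 10 genes, 9 belong to the 16 that were on by pachytene in WT. The 12 genes with enough UMIs were all among those 16 except Spaca1 and Spaca6, so the UMI filter largely set this share.

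Spaca1 is the tenth. It was at 42.3 CPM (31.3 to 56.0) in the Rad51ap2-led KO cells, 4.54 in the other early prophase-like cells and 9.29 in KO somatic-like cells. In WT it stood at 11.5 CPM (9.71 to 13.4) in pachytene and diplotene-like cells and 372 in round spermatids. Its KO prophase level thus exceeded the WT pachytene level, in another class and another library. In the 38 WT Rad51ap2-led cells it was at 63.1 CPM, a level not apart from the 58.2 of WT somatic-like cells.

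**Figure D4:**
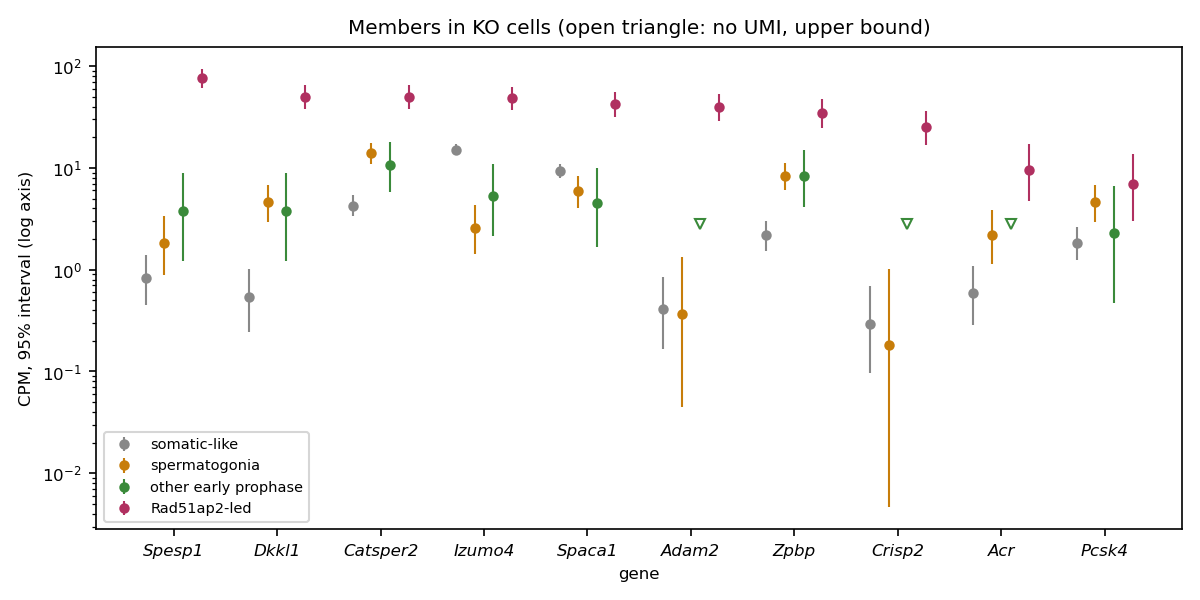
CPM (log axis) with 95% counting intervals of 10 genes in KO somatic-like, spermatogonia-like, other early prophase-like and Rad51ap2-led early prophase-like cells; open triangles give the upper bound where no UMI was seen. The Rad51ap2-led cells are highest for each gene, from 6.91 CPM for Pcsk4 to 76.0 for Spesp1.

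The 2 Rad51ap2-led sub-clusters differed from each other. The genes took 0.0273% of UMIs in one (127 cells) and 0.0574% in the other (80 cells). Spesp1 was at 38.7 and 112 CPM, Dkkl1 at 12.3 and 86.6, Adam2 at 15.8 and 62.9 and Crisp2 at 10.6 and 39.1, in that order. Catsper2, with 49.2 and 51.0 CPM, and Spaca1, with 35.2 and 49.3, had intervals that overlap.

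These KO cells were set beside the 38 WT cells of the sub-cluster that also has Rad51ap2 among its leading genes. The match rests on that gene. Zfy1, Zfy2 and Scml1 were among the leading genes of both KO sub-clusters, and Sycp1, Ly6k and Sycp3 among those of the WT one. Whether the cells are at the same stage was not tested. The WT sum was 6.73 times (5.99 to 7.58) that of KO. Spesp1 was level between the libraries, at 71.5 and 76.0 CPM, a ratio of 0.940 (0.524 to 1.59). Spaca1 at 1.49 (0.776 to 2.70) did not differ beyond counting error either. Dkkl1 was at 404 and 50.1 CPM, 8.06 times (5.76 to 11.4) higher in WT, and Adam2 at 189 and 39.7, 4.76 times (3.09 to 7.34). Each WT value includes free RNA, which WT somatic-like cells held at 226 CPM for Dkkl1, 75.5 for Adam2 and 49.6 for Spesp1.

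Spaca6 was the gene with a clear somatic level. In KO it was at 133 CPM (125 to 141) in Sertoli-like, 82.7 (75.1 to 90.9) in Leydig-like, 164 (123 to 215) in peritubular myoid-like, 123 (105 to 142) in stromal-like, 227 (176 to 287) in endothelial-like and 26.6 (17.7 to 38.5) in myeloid-like cells. Sertoli-like and stromal-like cells did not differ beyond counting error. KO spermatogonia-like and early prophase-like cells had 9.93 and 10.5 CPM, values in which free somatic RNA and expression cannot be told apart. RefSeq lists microRNA names among the synonyms of Spaca6 and its span overlaps Has1, so the transcripts counted may not all be the sperm protein's.

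Of the 41 genes, 28 had a UMI in KO somatic-like cells. After Spaca6 the most were of Izumo4, with 255 UMIs, and Spaca1, with 157, followed by Catsper2 with 72, Acrbp with 55, Zpbp with 37 and Pcsk4 with 31. Izumo4 was at 13.3 CPM in Sertoli-like, 15.9 in Leydig-like and 29.2 in stromal-like cells. Spaca1 was at 16.3 CPM in Sertoli-like cells and 1.36 in Leydig-like cells. Catsper2 was at 5.58 CPM and Acrbp at 4.07 CPM in Sertoli-like cells. Acr was at 26.7 CPM (11.5 to 52.5) in the 73 endothelial-like cells, on 8 UMIs. The elongating markers were at 0.000442% of UMIs in Sertoli-like and 0.000174% in Leydig-like cells.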

How the data were processed

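Deposited UMI counts per gene and barcode were used for both libraries; per the file headers, Cell Ranger 6.1.2 produced the matrices. Seurat 4.3 and the build GRCm39 are named, with no role, in the submitters' processing notes. Annotation and cell calling are not given in the sources used here.

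Barcodes with at least 500 genes and at most 20% mitochondrial UMIs were kept. Scrublet marked 126 of 6381 KO barcodes (1.97%), which were removed, and 1 of 5400 WT barcodes (0.0185%); this was taken as a failed call and none was removed, so WT doublets remain. Cells were clustered jointly with Scanpy 1.11.5 and leidenalg 0.10.2 (2000 variable genes per library without the 41 genes, 30 components, 15 neighbours, resolution 1) and spermatogonia and early prophase clusters again within each library. Clusters were named from 138 markers of 14 classes; 598 WT and 1668 KO cells stayed unnamed. UMIs were summed per class, with exact Poisson intervals for levels, conditional binomial ones for ratios and Clopper-Pearson ones for shares (95%, counting error only, SciPy 1.17.1). The floor for a count of 0 was 3 UMIs.

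The first-class rule recovered 193 of 200 genes (96.5%) set in simulated counts for the WT classes over 41459 genes. Free RNA was added there at the very level the rule assumes. The recovery therefore cannot check that level, and it does not bear on the spermatogonia calls described above. The 41 genes, lists and markers were chosen with earlier results of these data known. The round to pachytene ratio, cluster pairs and promoter motifs were chosen after values were seen. In each role the genes with the most WT UMIs were named, with those on before round spermatids or above background in KO; of the other lists, the 2 with the most UMIs and those starting by early prophase, read here by the somatic-like bound. Of the other settings tried, 12 were listed at the outset and 2 were added after the data were seen.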

Additional observations from a re-analysis of the deposited data

How the results depend on the processing

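No paired analysis was possible because there is 1 library per genotype and no test. The count of genes at least 2-fold higher in round spermatids than in pachytene was 25 under each of 8 other settings, and that of genes at least 2-fold lower in elongating than in round spermatids was 34 or 35. The first-class counts moved most, and the cause was not tested. Genes placed in pachytene or earlier numbered 38, but 20 with cells thinned to 1000 UMIs, 21 at 25% of the highest class, 23 at 2 times the free RNA level and 16 with the somatic-like bound. Genes placed first in round spermatids numbered 3, but 21, 20, 18 and 24 in that order, 9 with free RNA read from round spermatid markers and 0 with each cell gated by its own marker shares. By the somatic-like bound, gating gave 0 in early prophase, 0 in pachytene and 15 in round spermatids in place of 2, 14 and 24. The remaining genes then lay in spermatogonia, in elongating spermatids or in no class, and their numbers are not given here. That no gene began in spermatogonia-like cells by this bound is therefore stated for the main setting only. The early prophase count was 0 after thinning and 1 at 25%. Without elongating markers in the totals, 6 genes were highest in elongating spermatids, not 3.

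The summed share of UMIs under gating was 0.702% in WT spermatogonia, 0.364% in early prophase, 0.818% in pachytene, 1.40% in round and 0.778% in elongating spermatids. Thinning gave 0.247% in spermatogonia, 0.697% in pachytene, 1.10% in round and 0.799% in elongating spermatids. Round spermatids gave 1.26% at 200 genes per cell, 1.17% at resolution 0.5 and 1.27% without elongating markers; elongating spermatids gave 0.760% at 200 genes, 0.743% at 1000 and 0.986% without those markers. The WT to KO ratio was 66.8 over all barcodes without those markers. It was 14.3 in early prophase with gating, and in spermatogonia 95.8 with gating and 43.2 with thinning. Genes above KO somatic-like cells fell from 6 to 0 (thinned) or 2 (at 4 times) in spermatogonia and from 8 to 2 (thinned) in early prophase. Thinned KO cells hold few UMIs of these genes, and 86 WT early prophase-like and 63 WT somatic-like cells limit the onset calls.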
